A study of Rattus norvegicus with 8 samples.

Results

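The let-7 family of guide strands was examined in small RNA sequencing counts from the striatum, a forebrain region of reward and movement. Its members are the 9 mature 5p miRNAs of the let-7 and miR-98 genes, taken by name, and all 9 were found among the 752 mature miRNAs of the count table. The rule that picks the members uses names and no measured value, although the family was proposed for study with earlier results of these data known. The libraries came from 8 wild-type male Sprague-Dawley rats, 1 library per rat. In the saline group, 4 rats pressed a lever for saline infusions, and in the METH group, 4 rats pressed for methamphetamine. Rats of both groups carried a jugular catheter after food training, and those with stable responding were kept by the study, so the groups stand for selected animals. Their age was not given in the sources used here. Rats are named by group and by their number in the sample labels.

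A miRNA is a short RNA that an Argonaute protein carries to target messenger RNAs, where bases 2 to 8 (the seed) pair with the target and lower its output. Let-7 was found as a timing gene of worm development, and in mammals it accumulates as cells leave the progenitor state, while the RNA-binding protein LIN28 blocks its maturation in early cells. In the adult brain it is abundant in neurons and glia. Known targets include Lin28, Hmga2 and Ras genes, and the mu opioid receptor is a reported target of let-7 in the context of drug tolerance.

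The mature sequences are printed because the members differ so little that counting depends on single bases. They are RefSeq sequences on the assembly GRCr8, 5′ to 3′, with the seed in capitals.
rno-let-7a-5p: uGAGGUAGuagguuguauaguu
rno-let-7b-5p: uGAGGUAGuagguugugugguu
rno-let-7c-5p: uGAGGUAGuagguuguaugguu
rno-let-7d-5p: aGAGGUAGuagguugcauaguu
rno-let-7e-5p: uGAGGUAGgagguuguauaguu
rno-let-7f-5p: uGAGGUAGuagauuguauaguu
rno-let-7g-5p: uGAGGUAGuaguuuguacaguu
rno-let-7i-5p: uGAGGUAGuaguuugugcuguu
rno-miR-98-5p: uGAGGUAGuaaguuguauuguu

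Each member was 22 bases long, so their levels needed no correction for length. All 9 shared the seed GAGGUAG, and 0 other mature rat miRNAs of that reference had it. Outside the seed, the changes from let-7a-5p, counted from base 1 at the 5′ end with the base of let-7a-5p first, were A19G in let-7c-5p, G12A in let-7f-5p and U9G in let-7e-5p. Let-7b-5p differed by A17G and A19G. Let-7d-5p differed by U1A and U16C and was the only member that did not begin with U. Let-7g-5p differed by G12U and U18C, and miR-98-5p by G11A and A19U. Let-7i-5p was the farthest, with G12U, A17G, U18C and A19U. Of the 36 pairs of members, 4 differed at 1 base, and no pair differed at more than 6. A sequencing error or an edited base at such a position could move a read between members, and its part in the values was not tested.

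The members came from 12 genes on GRCr8, since let-7a-5p, let-7c-5p and let-7f-5p each had 2 genes and the others had 1. Reads had been aligned to another assembly, rn6, so the positions below locate the sequences and not the reads. The table of genes gives gene spans only, so whether a site is exonic or intronic was not examined. On the plus strand of chromosome 17, let-7a-5p lies at chr17:16320145-16320166, let-7f-5p at chr17:16320508-16320529 and let-7d-5p at chr17:16322273-16322294, all inside a long non-coding RNA gene. On chromosome X, let-7f-5p lies at chrX:24460052-24460073 and miR-98-5p at chrX:24460663-24460684, within the span of Huwe1, a ubiquitin ligase gene. Let-7c-5p and let-7b-5p lie at chr7:118683636-118683657 and chr7:118684044-118684065, with 408 bases between their starts. The second gene of let-7c-5p is at chr11:29688127-29688148, next to Mir99a, and the second gene of let-7a-5p is at chr8:50805219-50805240, next to Mir100. Let-7e-5p lies at chr1:67350243-67350264, 173 bases after Mir99b and within the span of Spaca6. Let-7g-5p lies at chr8:115701026-115701047, within the span of Wdr82, and let-7i-5p at chr7:60527935-60527956 on the minus strand, within the span of a predicted protein-coding gene. RefSeq also lists Mir3596a, Mir3596b and Mir3596c over sites of let-7a-5p, let-7d-5p and let-7e-5p, and whether counting used the strand was not given in the sources used here. The entries of Mir3596a, Mir3596b and Mir3596c were nearly empty, with at most 0.073 CPM in any rat, for rno-miR-3596c. Over the chromosome 17 site of let-7f-5p RefSeq lists both Mirlet7f-1 and Mirlet7f-1os, which this check did not cover.

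Total counts ranged from 12929302 to 27632443 per library, and the groups did not differ in depth beyond their spread (two-sided exact permutation test over 70 assignments, p = 0.286). Counts are given as CPM, the usual depth-scaled count, after trimmed mean of M-values (TMM) scaling. METH rat 4 stood apart, with a TMM factor of 0.766 against 0.959 to 1.15 in the other 7 libraries, and the differences of the members between groups are therefore given with and without it. Among the 507 miRNAs tested, METH rat 4 had the highest CPM of the 8 rats for 30.4% and the lowest for 34.7%. The tissue label was checked against marker lists. The 5 neuronal markers summed to 278805 to 483539 CPM in saline rats and 314753 to 467665 CPM in METH rats, and no marker of any list was at 0. In METH rat 4 the choroid plexus list (3 of 3 in the table) summed to 7105 CPM, against 2745 to 3546 in saline rats and 2842 to 2876 in METH rats 1 to 3. The erythrocyte list (2 of 3 in the table) summed to 2816 CPM there, against 402 to 643 and 341 to 648. The vascular list was also highest in METH rat 4 (13738 against 10179 to 10808 and 10725 to 11721 CPM). So was the muscle list (113 against 46.1 to 66.9 and 43.3 to 80.7 CPM). The oligodendrocyte list was highest in METH rat 4 by its sum only (4492 against 2897 to 3191 and 2334 to 4052 CPM). Its miR-219a-2-3p peaked in this rat, with a log2 CPM of 12.01, while the remaining rats spanned 10.48 to 11.44. Its miR-338-3p (8.02, remaining rats 8.28 to 9.82) and miR-219a-5p (6.83, remaining rats 7.17 to 9.31) were lowest in METH rat 4. The epithelium list was at 18.9 CPM in METH rat 4, 7.98 to 32.1 CPM in saline rats and 63.5 to 1497 CPM in METH rats 1 to 3. The leukocyte list was at 22.6 CPM in METH rat 4, within the 8.92 to 33.5 CPM of saline rats. The neuronal list was at 332511 CPM in METH rat 4, within the saline range, but its markers did not move alike. The neuronal miR-124-3p, which leads the table by mean CPM, took 7.49% of counts there, against 14.7% to 33.4% in the other 7 rats. By contrast, miR-9a-5p of the same list was highest in METH rat 4, at 17.64 log2 CPM against 16.34 to 16.82. The part of these differences in the let-7 values was not tested, and in bulk tissue fewer cells of a type cannot be told apart from less RNA per cell.

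Let-7 guide strands made up a large part of the striatal miRNA pool, between 11.1% and 22.8% of all counts. The family share was 17.6%, 14.4%, 13.2% and 12.2% in saline rats 1 to 4. In METH rats 1 to 4 it was 15.1%, 14.1%, 11.1% and 22.8%. METH rat 4 was above every saline rat, METH rat 3 was below every saline rat, and the groups overlapped. Saline rats averaged 14.4 ± 2.36% (SD, n = 4), and METH rats averaged 15.8 ± 4.99% (SD, n = 4). The difference of 1.45 percentage points, METH minus saline, was smaller than either SD. Without METH rat 4 the METH mean was 13.5 ± 2.09% (SD, n = 3), and the difference was -0.90 percentage points. Taken of TMM effective library sizes in place of total counts, the difference was 3.5 percentage points with all 8 rats and -0.70 without METH rat 4. The 95% Wilson interval of the share in METH rat 4 ran from 22.82% to 22.85%. Such intervals are for counting error only and leave out the spread between rats. Reads copied by PCR are not separate molecules, so the intervals may be too narrow even for counting error.

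A share of the pool also depends on its largest entry by mean CPM, miR-124-3p, which varied between rats. In METH rat 4 miR-124-3p was below miR-9a-5p, so leaving miR-124-3p out did not remove the largest entry of that library. The share of miR-124-3p was 16.6% and 14.7% in saline rats 1 and 2 and 32.8% and 33.4% in saline rats 3 and 4. Relative to counts outside miR-124-3p, the family took 19.0 ± 1.82% (SD, n = 4) in saline rats. METH rats were at 19.8 ± 3.46% (SD, n = 4). The difference was then 0.80 percentage points with all 8 rats and -0.84 without METH rat 4, which was again the highest at 24.7%. METH rat 3 was again the lowest, at 16.6%, so the extremes were the same rats on both scales.

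**Figure D1:**
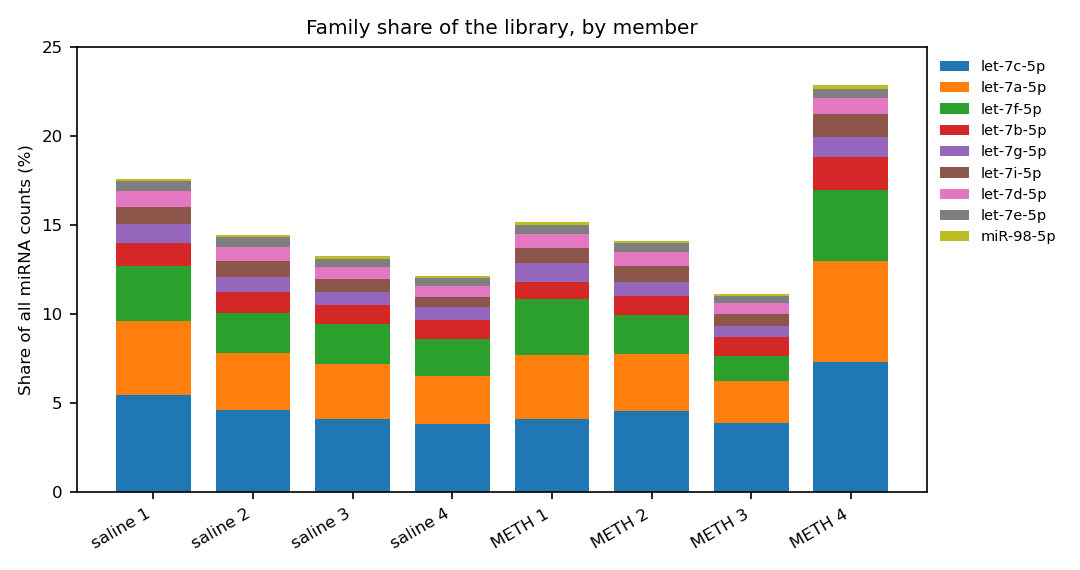
Share of all miRNA counts (%, vertical axis) held by the 9 let-7 guide strands in each of the 8 rats, stacked by member from let-7c-5p at the bottom to miR-98-5p at the top. The full bar is the family share, which runs from 11.1% in METH rat 3 to 22.8% in METH rat 4.

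Within the family, 3 members carried most of the counts. Let-7c-5p was the 3rd most abundant of all miRNAs by mean CPM, let-7a-5p the 6th and let-7f-5p the 10th. Averaged over the 8 rats, let-7c-5p held 31.4% of family counts, let-7a-5p 23.0% and let-7f-5p 16.7%. Let-7b-5p followed with 7.97%, let-7g-5p with 5.82%, let-7i-5p with 5.70%, let-7d-5p with 5.11% and let-7e-5p with 3.40%. The least abundant member was miR-98-5p with 0.95%, ranked 67th in the table. Levels between miRNAs also carry the capture bias of adapter ligation, whose part was not tested.

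The order of levels was stable from rat to rat, with a few exceptions. Let-7c-5p was above let-7a-5p, let-7a-5p above let-7f-5p and let-7f-5p above let-7b-5p in 8 of 8 rats. Let-7b-5p was above let-7g-5p in 7 of 8 rats, the exception being METH rat 1. Let-7g-5p and let-7i-5p could not be ordered, since let-7g-5p was the higher in 4 of 8 rats and the ratio of mean CPM was 1.00. Let-7i-5p was above let-7d-5p, let-7d-5p above let-7e-5p and let-7e-5p above miR-98-5p in 8 of 8 rats.

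The 3 leading members are also the 3 with 2 genes, and the counting rule bears on this order. A read from such a member aligns equally well to both genes. The deposited counts hold a direct case in the opposite arms, where let-7a-1-3p and let-7c-2-3p have the same mature sequence, printed here because their counts show how shared reads were handled.
rno-let-7a-1-3p: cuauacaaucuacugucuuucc
rno-let-7c-2-3p: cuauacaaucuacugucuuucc

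Their counts were 2860 and 2859 in saline rat 1 and 2847 and 2846 in METH rat 4, and they differed by at most 4 counts in any rat. Reads with 2 equal alignments were therefore given in near-equal number to both entries, and whether each was counted in full at both or shared out was not stated. If a read from both genes of a 2-gene member were counted 2 times, the level of that member would be too high by up to that factor. The counts of these members were not all even. Odd counts included 640913 for let-7a-5p and 453977 for let-7f-5p in saline rat 2 and 1143323 for let-7c-5p in saline rat 1, which a count of exactly 2 for every read cannot give. Halving only miRNAs with even counts in every library, as planned, therefore left the combined share of the 3 members at 71.0%. With every count divided by the number of genes of its miRNA, an alternative chosen after the data had been seen, the 3 members together went from 71.0% to 55.1% of the family. The family share of the pool was then 11.8 ± 2.29% in saline rats and 13.2 ± 4.82% in METH rats (SD, n = 4 each), in place of 14.4% and 15.8%, and 10.9% in METH rats without METH rat 4. Within the family, let-7c-5p then held 24.4%, let-7a-5p 17.8% and let-7f-5p 12.9%, against 12.4% for let-7b-5p. The mean order kept let-7c-5p and let-7a-5p in front, while let-7f-5p and let-7b-5p were close, with ranges over rats of 9.69% to 16.2% and 9.50% to 14.7%.

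**Figure D2:**
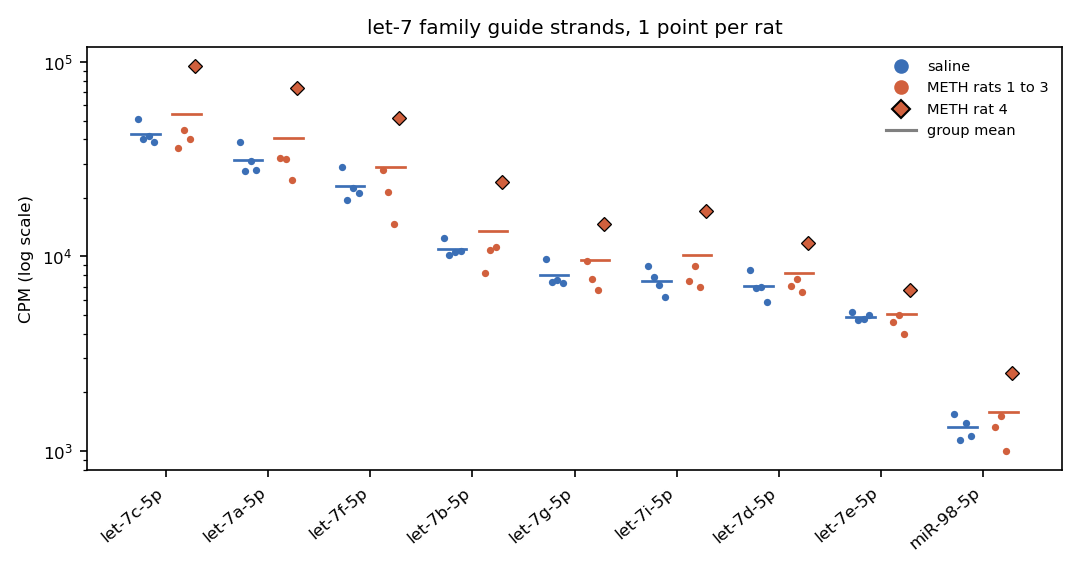
CPM after TMM scaling (log axis) of each member, from the most to the least abundant, with 1 point per rat, saline rats in blue and METH rats in orange. Horizontal lines are group means, and the outlined diamond is METH rat 4, which is the highest of the 8 rats for all 9 members.

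The next comparison asked whether guide strands differed between the METH and saline groups. Let-7c-5p, the leading member, was at 51253, 40105, 41481 and 38720 CPM in saline rats 1 to 4. In METH rats 1 to 4 it was at 36329, 44970, 40254 and 95250 CPM. METH rat 4 was far above the rest, METH rat 1 was below every saline rat and the other METH rats lay within the saline range. Let-7c-5p had a fitted log2 fold change of 0.34 ± 0.32 (SE), and the quasi-likelihood test gave an edgeR adjusted p of 0.881.

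Let-7a-5p, which shares its chromosome 17 locus with let-7f-5p and let-7d-5p, was at 38874, 27501, 31091 and 27748 CPM in saline rats. In METH rats it was at 32210, 31638, 24593 and 73954 CPM. METH rat 4 was again on top, and here METH rat 3 was below every saline rat. Let-7a-5p differed by 0.38 ± 0.35 (SE) on the log2 scale in the fit, and edgeR gave an adjusted p of 0.868.

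Let-7f-5p, from chromosomes 17 and X, was at 28919, 19480, 22496 and 21264 CPM in saline rats. In METH rats it was at 27889, 21333, 14759 and 51885 CPM. It spread more than the other members among METH rats 1 to 3, with a coefficient of variation of 30.8% there, against 7.99% to 20.6% for the others. The fitted log2 difference of 0.33 ± 0.36 (SE) was the least precise of the 9, and edgeR gave an adjusted p of 0.907.

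Let-7i-5p, which lies on chromosome 7 apart from the other members, had the largest fitted difference of the family. It was at 8946, 7791, 7122 and 6191 CPM in saline rats and at 7438, 8930, 6944 and 17146 CPM in METH rats. Only METH rat 4 lay above the saline range. The log2 difference was 0.43 ± 0.31 (SE), and the adjusted p from edgeR was 0.818.

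Let-7e-5p, from the cluster with miR-99b and miR-125a, had the smallest fitted difference with all 8 rats. Its coefficient of variation was the smallest in each group, at 4.28% in saline and 22.8% in METH rats. Among METH rats 1 to 3 it was 10.75%, above the 7.99% of let-7d-5p and the 10.68% of let-7c-5p. Let-7e-5p was at 5167, 4728, 4744 and 4983 CPM in saline rats and at 4607, 4969, 4005 and 6698 CPM in METH rats. The groups overlapped, and METH rat 4 exceeded the mean of the other METH rats by a factor of 1.48, the smallest of the family. The log2 difference was 0.05 ± 0.21 (SE), with a 95% interval from -0.42 to 0.51 and an adjusted p of 0.978 from edgeR. It was below 0 with library totals in place of TMM, at -0.10.

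Let-7b-5p, the neighbour of let-7c-5p on chromosome 7, was at 12423, 10191, 10597 and 10644 CPM in saline rats and at 8197, 10808, 11181 and 24194 CPM in METH rats. As for its neighbour, METH rat 1 lay below every saline rat. The remaining members, let-7d-5p, let-7g-5p and miR-98-5p, ranged from 5820 to 11752, from 6697 to 14690 and from 994 to 2526 CPM over the 8 rats. Their log2 fold changes were 0.23, 0.26 and 0.27, and that of let-7b-5p was 0.31.

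In the edgeR test, 0 of the 9 members had an adjusted p under 0.05, where 0% of the 507 miRNAs tested did. At a p under 0.05 before adjustment there were also 0 members, against 5.52% of all miRNAs tested. DESeq2 and the edgeR exact test called 0 members as well, and over all miRNAs tested they called 8 and 6. The groups did not overlap for 0 members, against 3.16% of all miRNAs tested. The fitted log2 fold change was above 0 for 9 of 9 members, with a median of 0.31, while 47.3% of all miRNAs tested were above 0 at a median of -0.02. With library totals in place of TMM, 8 of 9 were above 0 at a median of 0.11, while 34.7% of all miRNAs tested were above 0 at a median of -0.12. The count of 9 rests on METH rat 4. Without it, 2 of 9 members were above 0, let-7i-5p at 0.057 and let-7d-5p at 0.015, against 49.4% of all miRNAs tested. The other 7 lay between -0.12 and -0.010, with adjusted p-values of 0.998 in the edgeR test.

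The data do not show that the groups were alike. The 95% intervals of the log2 fold change reached from -0.48 to 1.14 for let-7f-5p and from -0.26 to 1.11 for let-7i-5p. A doubling, which is 1 on this scale, lay inside the intervals of let-7c-5p, let-7a-5p, let-7f-5p, let-7b-5p and let-7i-5p. It lay outside those of let-7g-5p, let-7d-5p, let-7e-5p and miR-98-5p, whose upper ends were 0.87, 0.77, 0.51 and 0.91. With 4 rats a group, the p-values set each difference against the spread between rats, which edgeR estimates with information from all miRNAs tested.

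**Figure D3:**
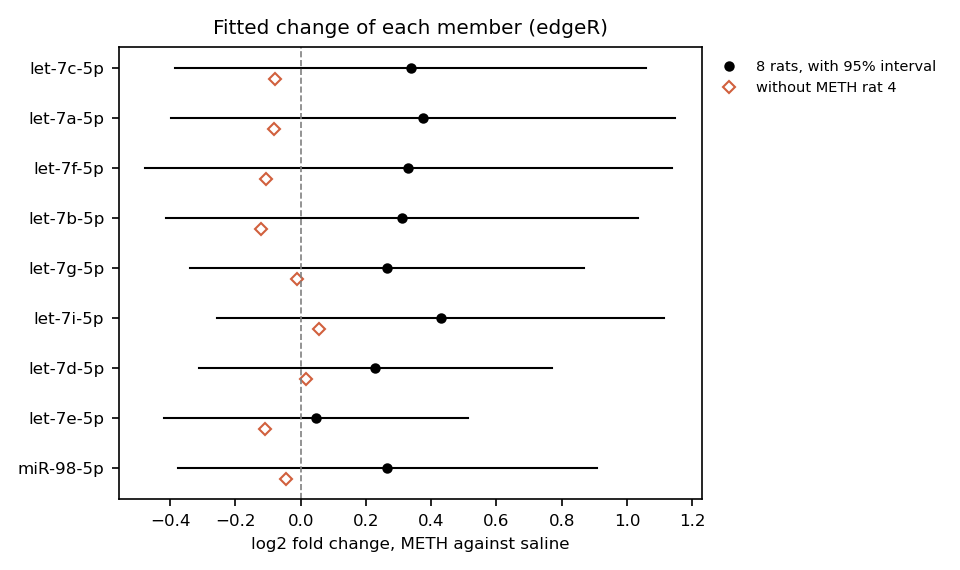
Fitted log2 fold change of each member, METH against saline (horizontal axis). Black points with 95% intervals use all 8 rats, and open diamonds leave out METH rat 4. All 9 black points lie above 0 and all 9 intervals span 0, whereas 7 of the 9 diamonds lie below 0.

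METH rat 4 was above the other METH rats in every member, but not to the same degree. Its CPM relative to the mean of METH rats 1 to 3 was 2.51-fold for let-7a-5p, 2.43-fold for let-7f-5p, 2.40-fold for let-7b-5p and 2.35-fold for let-7c-5p. It was 2.21-fold for let-7i-5p, 1.98-fold for miR-98-5p, 1.85-fold for let-7g-5p, 1.66-fold for let-7d-5p and 1.48-fold for let-7e-5p. The same ratio had a median of 0.88 over all miRNAs tested, and 26.6% of them reached at least the 1.48 of let-7e-5p. In the saline group, saline rat 1 was the highest for all 9 members, at 1.05 times the saline mean for let-7e-5p and up to 1.26 times for let-7f-5p.

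The likeness of members across rats was lower without METH rat 4. Over the 8 rats, Pearson correlations of log2 CPM between members ranged from 0.72 to 0.98, with a median of 0.91 over the 36 pairs. Without METH rat 4 they ranged from -0.21 to 0.94, with a median of 0.65. The lowest pair was then let-7b-5p with let-7f-5p, and the highest was let-7d-5p with let-7i-5p. Without METH rat 4, pairs of the chromosome 17 locus were at 0.90 for let-7a-5p with let-7f-5p, 0.80 for let-7a-5p with let-7d-5p and 0.53 for let-7d-5p with let-7f-5p, the last below the median of all pairs. The locus mates let-7b-5p and let-7c-5p were at 0.81, and let-7f-5p and miR-98-5p at 0.80. These points share libraries and scaling and are given as a description.

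The composition of the family also differed between rats of the METH group. Let-7f-5p held 20.7% of family counts in METH rat 1 and 12.7% in METH rat 3, whereas the 4 saline rats lay between 15.6% and 17.5%. Let-7b-5p went the other way, with 6.10% in METH rat 1 and 9.64% in METH rat 3, against 7.51% to 8.59% in saline rats. The ratio of let-7f-5p to let-7b-5p was 3.40 in METH rat 1 and 1.32 in METH rat 3, and it was between 1.91 and 2.33 in the other 6 rats. As the 2 rats lay on opposite sides of the saline group, the group means stayed close. The mean share of let-7f-5p was 16.8 ± 0.85% for saline and 16.5 ± 3.39% for METH (SD, n = 4 each). Let-7e-5p averaged 3.62 ± 0.38% and 3.17 ± 0.62% (SD, n = 4 each), and its lowest share was 2.25% in METH rat 4. The shares of all 9 members overlapped between groups.

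This shift between METH rats 1 and 3 ran with the base composition of the members, a pattern noticed after the values had been seen. The CPM in METH rat 1 relative to METH rat 3 was 1.89 for let-7f-5p and 1.32 for miR-98-5p, which have 7 G or C bases. It was 1.41 for let-7g-5p and 1.31 for let-7a-5p, with 8. With 9 it was 1.15 for let-7e-5p, 1.07 for let-7d-5p, 1.07 for let-7i-5p and 0.90 for let-7c-5p, and for let-7b-5p, with 10, it was 0.73. Among the 456 other miRNAs tested that had a reference sequence, the median ratio was 1.29 for the 69 with 7 or 8 such bases and 0.95 for the 136 with 9 or 10. METH rat 1 also had the smallest library. The part of base composition or depth in the shift was not tested.

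**Figure D4:**
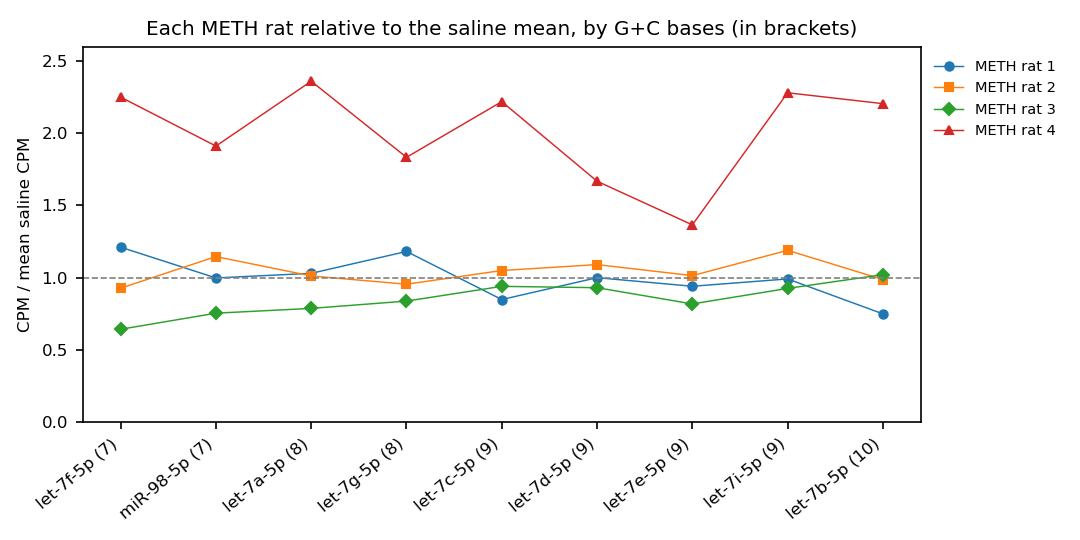
CPM of each METH rat divided by the mean saline CPM of the same member (vertical axis, 1 is the saline mean), with members ordered by their number of G and C bases, in brackets. Lines join the points of 1 rat. METH rat 4 is the highest point for every member, and METH rat 1 is highest relative to METH rat 3 at let-7f-5p and lowest at let-7b-5p.

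The label guide strand was checked against the opposite arms, since each precursor gives a 5p and a 3p arm and the guide is the arm that Argonaute keeps. The 5p arm had more counts than the 3p arm in every rat for all 9 members. The ratio was smallest for let-7d-5p, with a median of 14.4 over the 8 rats and a range of 9.42 to 20.2. Let-7d-3p thus had 5063 to 18355 counts per library, far above any other opposite arm. The ratio of let-7d-5p was 14.5, 15.1, 14.4 and 13.6 in saline rats, against 20.2, 18.5, 9.42 and 10.7 in METH rats. The saline rats lay close together, with METH rats 1 and 2 above and METH rats 3 and 4 below them.

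For let-7e-5p the ratio of arms had a median of 76.6, and for let-7b-5p, let-7f-5p and let-7g-5p it had medians of 1974, 1551 and 1568. Let-7i-5p was the most variable relative to its opposite arm. Its ratio was 450, 351, 61.3 and 42.6 in saline rats 1 to 4 and 415, 165, 161 and 1298 in METH rats 1 to 4. The counts of let-7i-3p behind this were 443, 517, 3184 and 3714 in saline rats and 261, 1075, 1069 and 220 in METH rats, so the 3p arm changed between rats far more than the guide. For let-7a-5p and let-7c-5p, whose 3p arms include the identical pair, the medians were 286 and 393 and count the shared reads in both.

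**Figure D5:**
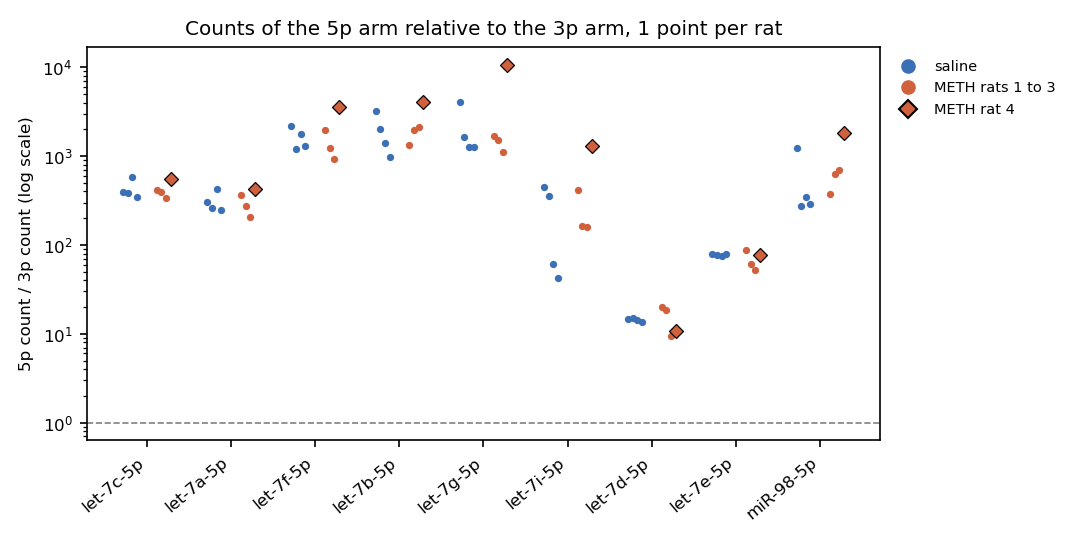
Count of each 5p arm divided by the count of its 3p arms (log axis), 1 point per rat, saline in blue and METH in orange with METH rat 4 as an outlined diamond. The dashed line marks equal counts. Every point lies above it, from 9.42 for let-7d-5p in METH rat 3 to 10638 for let-7g-5p in METH rat 4, where the 3p arm had 23 counts.

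The miRNAs encoded next to let-7 genes were compared as a list fixed by position. They were miR-99a-5p, miR-100-5p, miR-99b-5p, miR-125a-5p and miR-125b-5p, and 0 of 5 had an adjusted p under 0.05 in the edgeR test, where 0% of all miRNAs tested did. The log2 fold change was above 0 for 4 of 5, from 0.10 for miR-125a-5p to 0.48 for miR-99b-5p, while miR-125b-5p was at -0.28, and 47.3% of all miRNAs tested were above 0. Relative to the other METH rats, METH rat 4 was at 1.80-fold for miR-99b-5p and 1.52-fold for miR-100-5p. For miR-99a-5p, miR-125b-5p and miR-125a-5p this ratio was 1.09, 0.90 and 0.86, below the 1.48 to 2.51 of the let-7 members.

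The tested miRNAs most like the summed family CPM over the 8 rats were miR-100-3p, miR-204-5p and miR-191a-3p, with Pearson correlations of log2 CPM of 0.98, 0.98 and 0.98 and Spearman correlations of 0.93, 0.55 and 0.67. They were picked for this value, so no test is given. Without METH rat 4 the Pearson values were 0.88, 0.81 and 0.85. Without METH rat 4 and saline rat 1, the rats farthest from the family median, they were 0.52, 0.10 and 0.27, so the likeness rests on those rats. Of these, miR-204-5p, known from choroid plexus, was at 6901 CPM in METH rat 4 and between 2680 and 3463 CPM in the other rats.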

How the data were processed

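Small RNA of the striatum was measured in 4 saline and 4 METH rats, grouped by the treatment in the labels. The deposited values are raw counts per mature miRNA, which the authors made by trimming with Cutadapt 1.18, alignment to rn6 with STAR 2.7.0e and featureCounts of Subread 1.6.4. Merging of reads by molecular identifier, the miRNA annotation and the rule for reads with several alignments were not given in the sources used here.

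Low-count miRNAs were removed with filterByExpr (minimum count 10), which left 507 of 752. Counts were scaled by TMM and tested with the quasi-likelihood test of edgeR 4.0.16 under R 4.3.3. The model held the treatment group alone, and p-values were adjusted by Benjamini-Hochberg over all 507. The threshold was an adjusted p of 0.05. SE was derived from the F statistic (size of the log2 change over the root of F), and 95% intervals use the t distribution. Log2 CPM used a prior count of 2. DESeq2 1.42.0, the edgeR exact test, other scalings and filters, a replicate block and leaving out each library were alternatives. The fit was also run on simulated data with larger changes than those fitted for the members and no deviant library. That run does not measure power or interval cover for the members.

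The members were taken by name, but this family and the lists were chosen with earlier results of these data known. Named miRNAs are the 9 members, miRNAs encoded next to them, their opposite arms and the 3 most alike over rats. Sums and shares over members are descriptions without a test. Of 752 names, 685 had a RefSeq sequence on GRCr8. Of 498 other miRNAs tested, 456 had one.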

Additional observations from a re-analysis of the deposited data

Results flagged for a closer look

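Among 20 groups of 4 rats examined (each member and the family share, in each treatment group) for a single distant rat, 1 group had such a rat, where chance marks about 1 in 20. This was let-7g-5p in the saline group, where saline rat 1 was at 13.25 log2 CPM and the other saline rats lay between 12.84 and 12.88. Its gap to the nearest rat was 0.89 of the range of the group.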

How the results depend on the processing

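In the 10 other settings with 8 libraries and in the 8 fits that each left out a library, 0 members were called. Adjusted p-values of members ranged from 0.761 to 0.998 in the former and from 0.533 to 0.999 in the latter. Over all miRNAs tested, the fit without METH rat 1 called 5 of 513. DESeq2 called 8 of 507, the edgeR exact test called 6 of 507, and every other fit called 0. Of 90 member fold changes in other settings, 88 kept their direction. The 2 that turned were those of let-7e-5p, at -0.098 with library totals and -0.0030 with counts halved for the 35 miRNAs whose counts were even in every library. The median of all miRNAs was -0.02 in the TMM fit. It was 0.08 by upper quartile scaling and -0.12 by library totals. The median of the members moved with it, from 0.31 to 0.41 and 0.11. With 1 library left out, 7 of 72 turned, each without METH rat 4. These fits ranged from -0.078 to 0.49 for let-7c-5p, -0.082 to 0.55 for let-7a-5p, -0.11 to 0.52 for let-7f-5p, -0.12 to 0.49 for let-7b-5p, -0.010 to 0.43 for let-7g-5p, -0.11 to 0.12 for let-7e-5p and -0.044 to 0.41 for miR-98-5p. The median of the members ranged from -0.078 to 0.43, and the difference in family share from -0.90 percentage points without METH rat 4 to 3.01 without METH rat 3. By TMM effective library sizes that difference was 3.5, and -0.70 without METH rat 4. The combined share of the 2-gene members moved to 55.1% with counts divided by gene number. The replicate block gave 0 members called and a median of 0.20. The labels do not pair rats across groups, and deviations of same-numbered rats correlated at -0.34, -0.15, -0.15 and -0.36.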
